A study of Homo sapiens with 9 samples.

Results

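Metallothioneins are small cysteine-rich proteins that bind zinc and copper, and this account describes 7 of their genes (*MT1A*, *MT1E*, *MT1F*, *MT1G*, *MT1M*, *MT1X* and *MT2A*) together with *MTF1*, the zinc-sensing transcription factor that activates them. These 8 genes were taken by symbol from the 38021 genes of the count table, by a rule that sets no threshold on their values. The RNA came from 786-O, a human cell line established from a clear cell renal cell carcinoma (ccRCC), in which VHL is not functional and HIF2α therefore accumulates. A lentivirus had given the cells a control hairpin (shControl), a hairpin against *ARNT* (shARNT) or a hairpin against *BMAL1* (shBMAL1), short RNAs that deplete a transcript, with 3 libraries in each of the 3 groups. All 9 libraries came from cells labelled wild type that had been infected, selected with puromycin and grown in the same medium, so the hairpin was the labelled difference between groups. The comparisons address what ARNT and BMAL1, alternative partners of HIF2α, each contribute to gene expression in these cells.

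MTF1 senses free zinc through its zinc fingers and then binds metal response elements, short motifs that recur in metallothionein promoters. The proteins made in response hold the excess metal, and the zinc exporter gene *SLC30A1* is induced by the same factor. Metallothionein genes also respond to glucocorticoids, oxidants and low oxygen, and in kidney epithelium they are known for binding cadmium.

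The targeted transcripts were lower in the libraries labelled for them: *ARNT* fell to 1225 ± 23.2 normalised read counts in shARNT from 2352 ± 184 in shControl, and *BMAL1* (listed as *ARNTL*) fell to 326 ± 29.2 in shBMAL1 from 761 ± 32.0 (mean ± SD, n = 3 libraries). Each was also lower in the other knockdown, *ARNT* at 2014 ± 76.2 in shBMAL1 (log2 fold change −0.23 ± 0.08, adjusted p = 0.0187) and *BMAL1* at 633 ± 57.8 in shARNT (−0.26 ± 0.10, adjusted p = 0.0293; DESeq2). The first of these calls was lost without control library 2 (−0.17) or shBMAL1 library 2 (−0.19), and the second without control library 2 (−0.23) or shARNT library 3 (−0.19). These are RNA values. For protein, the study's immunoblots instead showed slightly more ARNT after BMAL1 knockdown and slightly more BMAL1 after ARNT knockdown. A normalised read count is the count divided by a size factor for the library's depth, and the libraries held 33793045 to 35444735 reads. Of 11 renal epithelial markers only *LRP2* was at or below 3 counts in every library, and their summed level ran from 141000 to 144700 in shControl, 135500 to 137900 in shARNT and 120800 to 135300 in shBMAL1. Of 10 immune, endothelial and smooth muscle markers, 5 were at or below 3 counts throughout, including *PTPRC* and *CD3E* (immune) and *CDH5* and *VWF* (endothelial). The summed level of these 10 was 7607 to 8349 in shControl, 7140 to 7835 in shARNT and 5949 to 7384 in shBMAL1. Most of it was *CD68*, a lysosomal gene, which was lower in shBMAL1, where the smooth muscle gene *ACTA2* was higher; the part of these lists in the results below was not tested.

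The 7 metallothionein genes lie in a cluster on chr16:56642496-56718108 (GRCh37), a span of 75.6 kb. From the first base on the plus strand the order was *MT2A* (chr16:56642496-56643409), *MT1E* (chr16:56659387-56661024), *MT1M* (chr16:56666571-56667893), *MT1A* (chr16:56672578-56673999), *MT1F* (chr16:56691643-56694610), *MT1G* (chr16:56700642-56701977) and *MT1X* (chr16:56716382-56718108). All are annotated on the plus strand except *MT1G*, on the minus strand. *MTF1* lies on the minus strand of another chromosome, at chr1:38275246-38325264, with 11 exons in its canonical transcript, and it overlaps 2 annotated genes, 1 of them on the opposite strand and the other on its own strand. No window of 100 bases of its canonical transcript was shared exactly with a transcript of another gene.

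Because these genes are similar in sequence, how far reads can be told apart was measured before the counts were used. Aligned canonical transcripts of the 7 metallothioneins were 80.3% (*MT1M* and *MT1G*) to 87.8% (*MT1E* and *MT1M*) identical. Windows of 100 bases, the read length, were shared exactly with another gene's transcript in none of the 7 except *MT1X*, where 22.0% of windows also lay in ENSG00000259827, a gene that overlaps it on the same strand. Allowing 2 mismatches, 18.5% of windows of *MT2A*, 13.4% of *MT1X*, 6.11% of *MT1G* and 3.86% of *MT1E* matched a metallothionein relative. No window of *MT1F*, *MT1A* or *MT1M* did. The value of *MT1X* may therefore include reads of the overlapping gene, and *MT2A* and *MT1X* could exchange some reads with each other or with pseudogenes.

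The promoters of *MT2A*, *MT1X* and *MTF1* are shown because the metal response element is the site that links MTF1 to its targets. The 250 bases before the annotated start of transcription are given from RefSeq on build GRCh38.p14, 5′ to 3′ on the strand of the gene: chr16:56608334-56608583 (plus) for *MT2A*, chr16:56682220-56682469 (plus) for *MT1X* and chr1:37859593-37859842 (minus) for *MTF1*. Capitals mark each match to the core of the metal response element, written TGCACNC or TGCGCNC and searched on both strands.
MT2A: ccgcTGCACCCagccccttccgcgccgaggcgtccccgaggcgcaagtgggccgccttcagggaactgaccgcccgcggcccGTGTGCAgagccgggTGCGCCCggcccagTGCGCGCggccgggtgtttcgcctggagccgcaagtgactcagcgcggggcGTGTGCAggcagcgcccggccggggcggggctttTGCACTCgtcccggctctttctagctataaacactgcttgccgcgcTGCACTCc
MT1X: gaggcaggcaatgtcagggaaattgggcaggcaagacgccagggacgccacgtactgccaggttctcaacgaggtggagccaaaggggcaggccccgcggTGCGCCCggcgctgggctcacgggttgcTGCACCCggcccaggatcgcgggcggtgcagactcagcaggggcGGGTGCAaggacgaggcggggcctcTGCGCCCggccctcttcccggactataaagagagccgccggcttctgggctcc
MTF1: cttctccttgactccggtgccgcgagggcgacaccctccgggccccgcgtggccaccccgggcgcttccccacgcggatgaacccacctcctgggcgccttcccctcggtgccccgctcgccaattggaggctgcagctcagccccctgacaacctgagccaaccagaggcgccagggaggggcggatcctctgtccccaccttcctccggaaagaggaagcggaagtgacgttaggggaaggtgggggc
*MT2A* held 7 cores, *MT1X* held 4 and *MTF1* held 0. At least 1 core was found in 24.7% of 27305 promoters of the same length, at least 4 in 0.366% and at least 6 in 0.059%. The core nearest to the start lay 8 bases before it in *MT2A* and 53 bases before it in *MT1X*. Both metallothionein promoters also held TATAAA, the TATA box, 29 bases (*MT2A*) and 30 bases (*MT1X*) before the start, a motif present in 11.1% of promoters. The core of the hypoxia response element was searched as GCGTG, present in 31.9% of promoters, and ACGTG, present in 18.7%. It occurred as GCGTG at 1 place in *MT2A* and 2 in *MTF1*, and as ACGTG at 1 place in *MT1X*. The E-box CACGTG, the motif bound by BMAL1 with CLOCK, is found in 6.49% of promoters and in none of these 3, which says only that these letters are not in this window. The promoters of *MT1A*, *MT1E*, *MT1F*, *MT1G* and *MT1M* were not analysed here.

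*MT2A* and *MT1E* carried most metallothionein RNA in 786-O cells. Per kilobase of canonical transcript, *MT2A* had 41790 ± 4456 normalised read counts in shControl, which ranked 21 among 20646 genes with a known length. *MT1E* had 8427 ± 1224 per kilobase (rank 207), *MT1X* 3630 ± 393 (rank 617), *MT1F* 466 ± 123 (rank 4512) and *MTF1* 83.3 ± 6.89 (rank 9098; SD over 3 libraries). The order was the same in all 3 groups, and the ranges of neighbours in this order did not overlap in any group. The level of *MT1E* depends on which of its transcripts is counted, since the shortest annotated, of 332 bases, would give 18940 per kilobase, still between *MT2A* and *MT1X*.

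The remaining 3 metallothioneins were at or near 0. *MT1M* had 0 counts in all 9 libraries. *MT1A* had 1, 3 and 2 counts in shControl, 1, 0 and 1 in shARNT and 3, 0 and 1 in shBMAL1. *MT1G* had 2, 0 and 1 counts in shControl, 1, 1 and 1 in shARNT and 3, 5 and 1 in shBMAL1. With so few reads no difference was detectable for these genes at this depth, and no fold is given. Of 13 further metallothionein genes and pseudogenes, 5 (*MT1B*, *MT1H*, *MT1HL1*, *MT3* and *MT4*) had a row in the table, each with a mean of about 1 count or fewer in every group. Thus 4 metallothioneins and *MTF1* could be compared between groups.

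**Figure D1:**
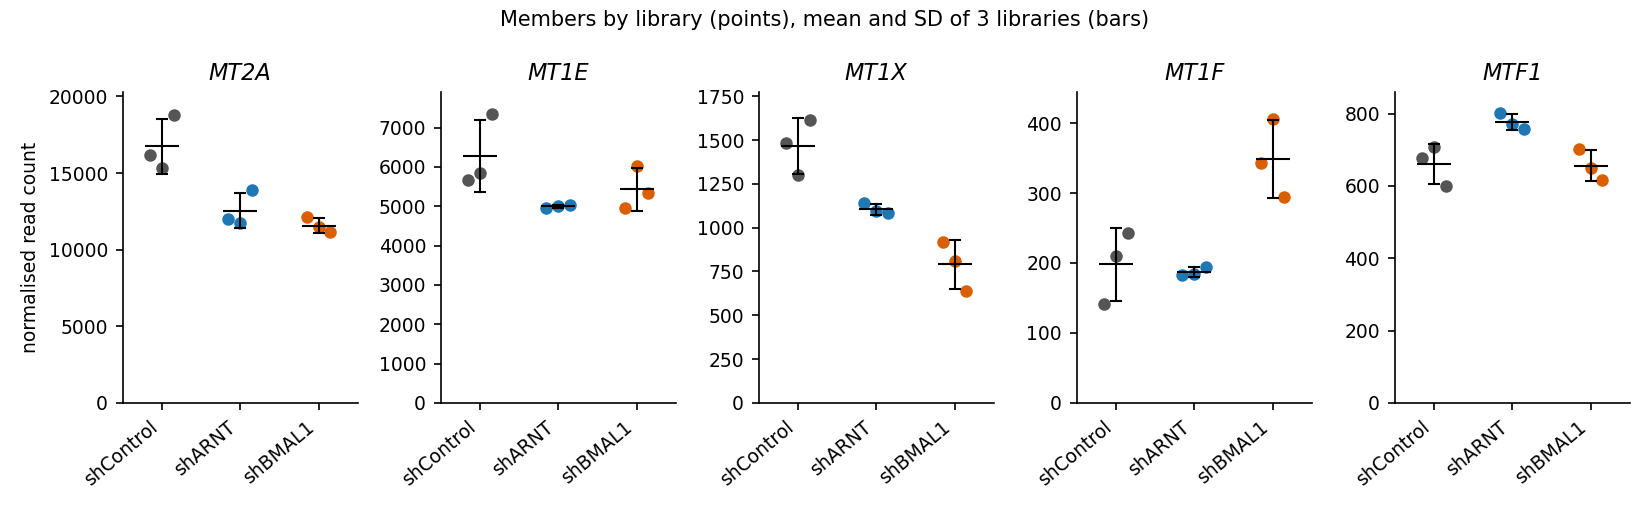
Normalised read counts of *MT2A*, *MT1E*, *MT1X*, *MT1F* and *MTF1* on linear axes starting at 0. Points are the 3 libraries of shControl (grey), shARNT (blue) and shBMAL1 (orange), and bars give the mean and SD; *MT2A* and *MT1X* lay below shControl in both knockdowns, *MT1F* was high in shBMAL1, and *MTF1* was highest in shARNT.

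*MT2A*, a widely expressed metallothionein, fell in both knockdowns. It measured 16186, 15324 and 18759 normalised read counts in shControl, 11999.5, 11770.4 and 13865 in shARNT, and 12102, 11469.9 and 11126 in shBMAL1. Every library of either knockdown was below every control library, while the knockdowns overlapped each other. The log2 fold change was −0.41 ± 0.07 (SE) in shARNT, or 0.75 of the control level, with an adjusted p of 4.24e-07 by the DESeq2 Wald test, and −0.54 ± 0.08 in shBMAL1, or 0.69 of the control level, with an adjusted p of 6.89e-11. Compared directly, shBMAL1 differed from shARNT by −0.12 (95% interval −0.26 to 0.03, adjusted p = 0.232), so no difference between the knockdowns was detected, within an interval that reaches −0.26. The 3 control libraries serve both comparisons, so chance values in them enter both. In bulk RNA, fewer cells that express a gene and less RNA per cell cannot be told apart.

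*MT1X*, a metal-inducible member at the far end of the cluster, fell in both knockdowns and further in shBMAL1. Its counts were 1484, 1299 and 1615 in shControl, 1139.9, 1093 and 1083 in shARNT, and 920.4, 812 and 640.4 in shBMAL1. The 3 groups did not overlap, with shControl highest and shBMAL1 lowest. The log2 fold change was −0.40 ± 0.09 in shARNT (adjusted p = 2.79e-05, DESeq2) and −0.89 ± 0.12 in shBMAL1 (adjusted p = 2.73e-12, DESeq2), the latter 0.54 of the control level. In the direct comparison *MT1X* was lower in shBMAL1 than in shARNT by a log2 difference of −0.48 ± 0.11 (adjusted p = 0.000183, DESeq2). The calls for *MT2A* and *MT1X* against shControl, and that of *MT1X* between the knockdowns, held when each library was left out in turn.

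*MT1F* moved the other way in shBMAL1. It measured 141, 209.9 and 244 normalised read counts in shControl, 183, 184 and 195 in shARNT, and 344, 406 and 295 in shBMAL1. The shBMAL1 libraries were above all 6 others, and the shARNT libraries lay within the range of the controls. The log2 fold change in shBMAL1 was 0.81 ± 0.19 (adjusted p = 9.71e-05, DESeq2), or 1.75 times the control level, and the direct difference from shARNT was 0.89 ± 0.16 (adjusted p = 1.48e-07, DESeq2). In shARNT it was −0.08 ± 0.19 (95% interval −0.45 to 0.30, adjusted p = 0.815), an interval that admits a moderate change either way, and its sign turned to 0.096 without the third control library. Both calls for shBMAL1 held when each library was left out in turn.

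*MT1E* fell in shARNT, and its call in shBMAL1 was not stable. It had 5668, 5858 and 7335 normalised read counts in shControl, 4967, 5001 and 5042 in shARNT, and 4945, 6017 and 5328 in shBMAL1. The shARNT libraries were below all controls and close to each other, whereas shBMAL1 overlapped both groups. In shARNT the log2 fold change was −0.33 ± 0.08 (adjusted p = 0.000275, DESeq2), and this call held when each library was left out in turn, although the change shrank to −0.20 (adjusted p = 0.00357) without the third control library. In shBMAL1 it was −0.21 ± 0.10 (adjusted p = 0.0784, DESeq2). That call was lost without the third control library, where the change was −0.09 (adjusted p = 0.524), without the first shBMAL1 library (−0.15, adjusted p = 0.551) and without the third (−0.20, adjusted p = 0.169). The direct difference was 0.12 (95% interval −0.03 to 0.27, adjusted p = 0.265), and it became 0.18 (adjusted p = 0.0346, DESeq2) without the first shBMAL1 library.

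*MTF1* was higher in shARNT, a call that depended on single libraries. It measured 676, 707 and 600.5 normalised read counts in shControl, 801, 772 and 756 in shARNT, and 702, 649 and 617 in shBMAL1. All shARNT libraries were above the other 6, and shBMAL1 overlapped shControl. The log2 fold change was 0.23 ± 0.09 in shARNT (adjusted p = 0.0467, DESeq2), or 1.18 times the control level. In shBMAL1 it was −0.01 ± 0.11 (95% interval −0.22 to 0.20, adjusted p = 0.948), and the direct difference was −0.24 ± 0.10 (adjusted p = 0.0429, DESeq2). The shARNT call was lost without control library 1 (0.25, adjusted p = 0.101) or 3 (0.17, adjusted p = 0.25), and without shARNT library 1 (0.21, adjusted p = 0.175) or 2 (0.24, adjusted p = 0.124). The direct call was likewise lost without shARNT library 1 (−0.22, adjusted p = 0.167) or 2 (−0.25, adjusted p = 0.115) and without shBMAL1 library 2 (−0.24, adjusted p = 0.124) or 3 (−0.20, adjusted p = 0.187). MTF1 is controlled largely through its zinc binding and its entry into the nucleus, which RNA counts do not measure.

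**Figure D2:**
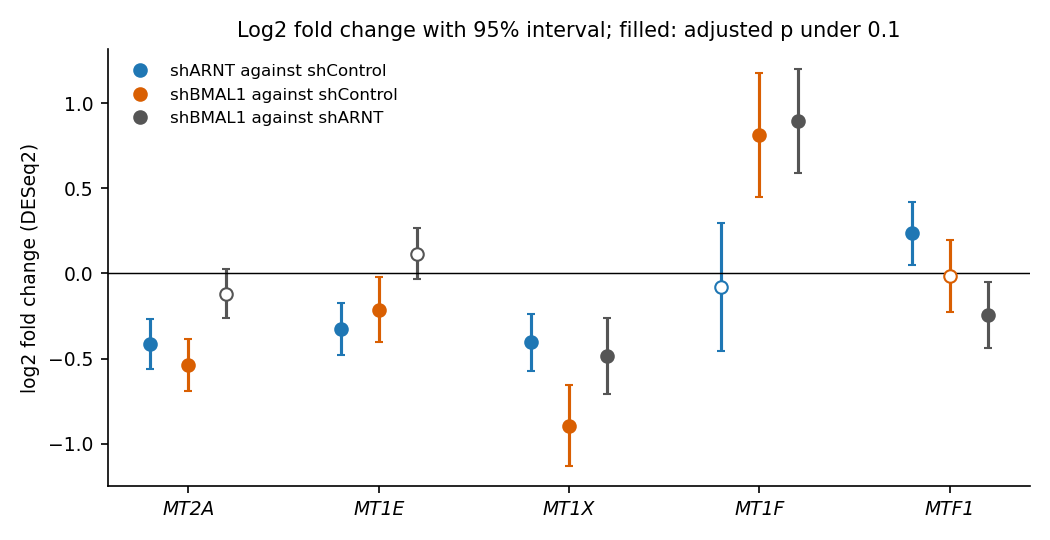
Log2 fold changes (DESeq2) of the 5 measured members with 95% intervals, for shARNT against shControl (blue), shBMAL1 against shControl (orange) and shBMAL1 against shARNT (grey); filled points passed an adjusted p of 0.1. The intervals of *MT1F* and *MT1X* in shBMAL1 lie on opposite sides of 0, at 0.45 to 1.18 and −1.13 to −0.66.

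Changes were common in these data, and the counts of members are read against that background. In shARNT, 35.4% of 15171 tested genes were called at an adjusted p under 0.1, 19.0% lower and 16.5% higher. Of the 4 measured metallothioneins, 3 were lower and 0 higher, with a median log2 fold change of −0.365 beside 0.0028 over all genes tested. In shBMAL1, 36.8% of 19047 genes were called, 19.4% lower and 17.4% higher, beside 3 lower and 1 higher of the 4, with a median of −0.375 beside 0.0155. In the direct comparison 36.3% of 17728 genes were called, 18.6% lower and 17.8% higher, beside 1 lower (*MT1X*) and 1 higher (*MT1F*), with a median of −0.001 beside 0.0076. With 4 genes these shares are a description only.

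Summed over the 7 genes, which does not depend on how reads are divided among them, metallothionein RNA was lower in both knockdowns. The sum was 23482, 22694 and 27956 normalised read counts in shControl, 18291, 18049 and 20188 in shARNT, and 18316, 18710.0 and 17391 in shBMAL1. Every knockdown library was below every control library, and the knockdowns overlapped. As a share of all reads the sum was 0.0704% ± 0.00798 (SD, n = 3) in shControl, 0.0546% ± 0.0033 in shARNT and 0.0529% ± 0.0018 in shBMAL1. Reads exchanged among the 7 would leave this sum in place, but reads exchanged with genes outside it, such as the pseudogenes *MT2P1* and *MT1XP1* or ENSG00000259827, would not.

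The composition of the family differed in shBMAL1. *MT1X* exceeded *MT1F* 6.19 to 10.54 times in the shControl libraries, 5.56 to 6.22 times in shARNT and 2.0 to 2.68 times in shBMAL1. The shBMAL1 ratios were below those of all 6 other libraries, and the tests of each gene between the knockdowns are those given above. *MT1F* made up 0.797% ± 0.172 of the sum in shControl, 0.993% ± 0.0306 in shARNT and 1.91% ± 0.242 in shBMAL1. *MT2A* made up 67.8% ± 0.959, 66.5% ± 1.90 and 63.8% ± 2.39, so the sum followed mainly this gene.

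**Figure D3:**
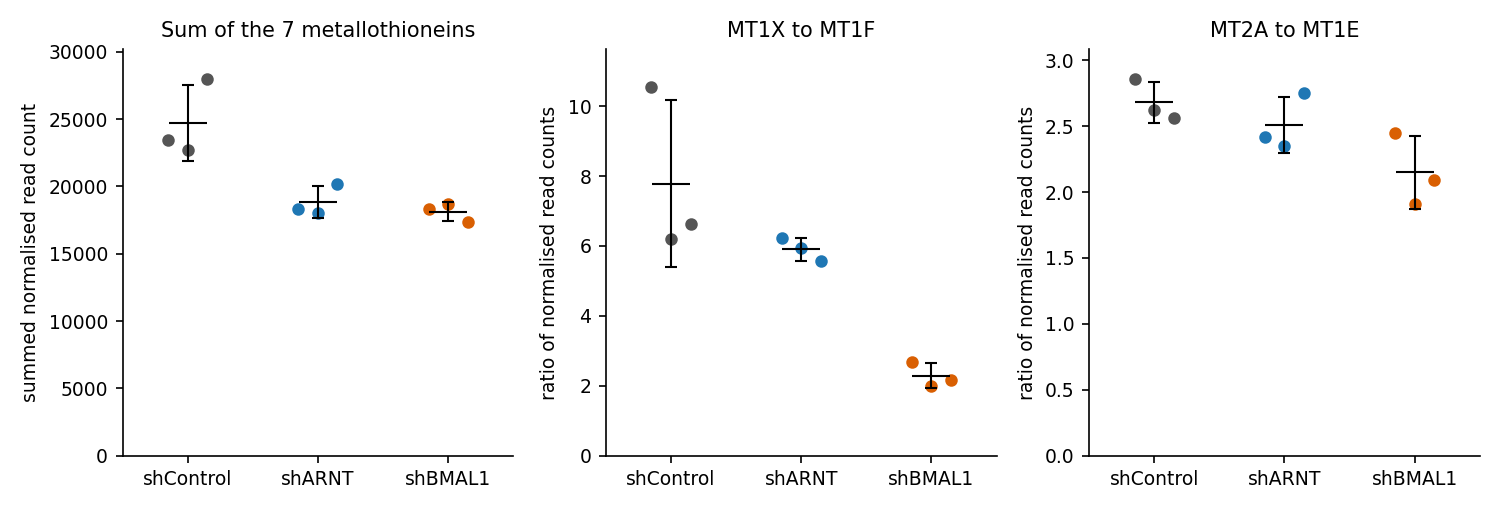
Left, summed normalised read counts of the 7 metallothioneins; middle and right, the ratios of *MT1X* to *MT1F* and of *MT2A* to *MT1E*. Points are libraries and bars the mean and SD of 3; the sum is lower in both knockdowns (17391 to 20188) than in shControl (22694 to 27956), and the *MT1X* to *MT1F* ratio is lowest in shBMAL1.

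Neighbours in the cluster did not move together in shBMAL1. *MT1F*, which rose, lies between *MT1E* and *MT1X*, with *MT1G* and *MT1A*, both near 0, beside it. Of 7 genes that flank the cluster, 5 were tested in shARNT, with 1 lower and 1 higher (median log2 fold change 0.019). In shBMAL1 6 were tested, with 4 lower and 1 higher (median −0.364). Over all genes tested, 35.4% were called in shARNT and 36.8% in shBMAL1. *NUDT21*, a factor in cleavage and polyadenylation of messenger RNA, had a log2 fold change of −0.45 ± 0.07 in shBMAL1 (adjusted p = 1.54e-08) and 0.07 ± 0.06 in shARNT (adjusted p = 0.392; DESeq2). The flanking nucleoporin gene *NUP93* fell in shBMAL1 (−0.39 ± 0.07, adjusted p = 1.08e-07, DESeq2). In shARNT it was at −0.11 ± 0.05 (adjusted p = 0.0988), a call that was lost when any 1 of the 6 libraries was left out (−0.12 to −0.09) and with edgeR (adjusted p = 0.104). *OGFOD1*, an oxygenase acting on the ribosome, fell in shBMAL1 (−0.34 ± 0.08, adjusted p = 5.68e-05, DESeq2), as did *BBS2*, a gene of the primary cilium (−0.24 ± 0.07, adjusted p = 0.00531, DESeq2).

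**Figure D4:**
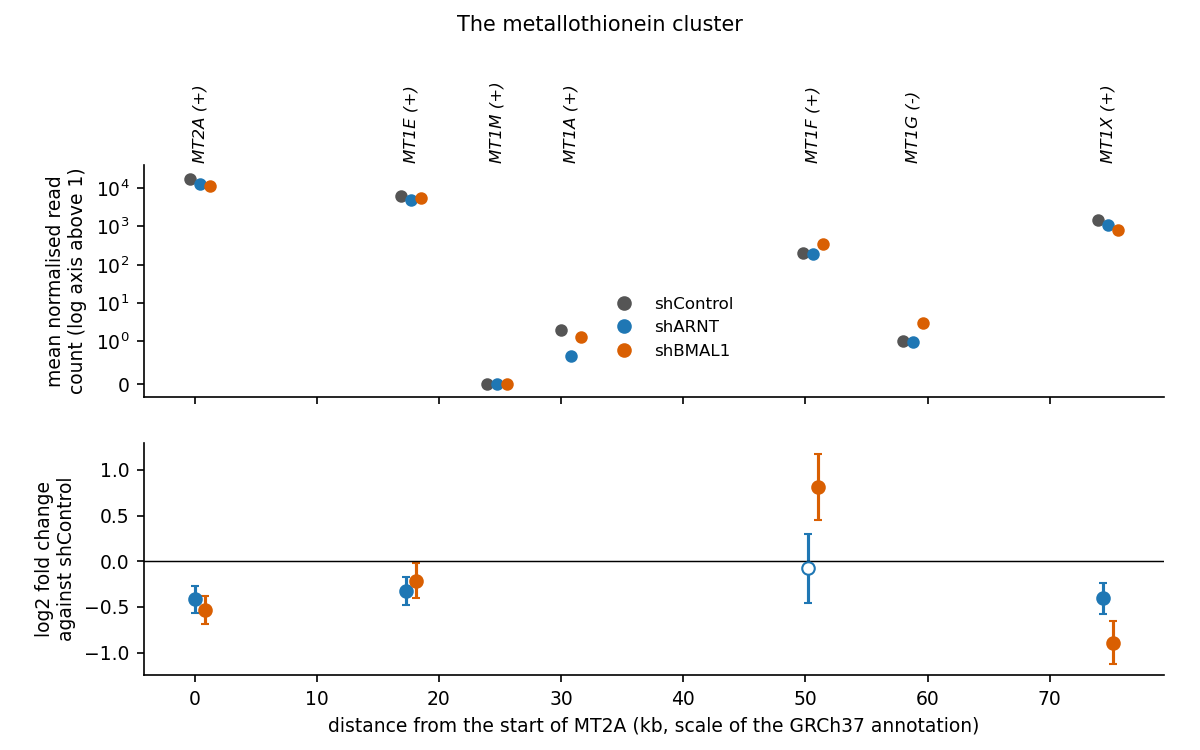
The 7 metallothionein genes by distance in kb from the start of *MT2A*, to scale, with the strand in brackets. Upper panel, mean normalised read count per group (log axis above 1, n = 3); lower panel, log2 fold change against shControl with 95% intervals for shARNT (blue) and shBMAL1 (orange), filled where the adjusted p was under 0.1. *MT1F* is the gene above 0 in shBMAL1, and *MT1M*, *MT1A* and *MT1G*, near 0 counts, have no fold change drawn.

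Reported MTF1 targets other than metallothioneins did not share a direction. Of 10 such genes, 9 were tested in shARNT, with 3 lower and 2 higher (median log2 fold change −0.102), beside 35.4% called over all genes. In shBMAL1 10 were tested, with 2 lower and 0 higher (median −0.010), beside 36.8% called over all genes. *SLC30A1*, which exports zinc from the cell, rose in shARNT to 855 to 1022 normalised read counts from 695 to 721 in shControl (0.38 ± 0.10, adjusted p = 0.000519, DESeq2). It thus stood opposite to *MT2A*, *MT1E* and *MT1X* in the same libraries, and in shBMAL1 it was at 0.13 ± 0.10 (adjusted p = 0.348). *CSRP1*, a cytoskeletal LIM protein gene, fell in shARNT (−0.37 ± 0.06, adjusted p = 6.55e-10) and shBMAL1 (−0.25 ± 0.08, adjusted p = 0.00493; DESeq2). *NDRG1*, which is also a well-known hypoxia-induced gene, fell by 1.61 on the log2 scale in shARNT (SE 0.07, adjusted p = 6.94e-116, DESeq2). In shBMAL1 *NDRG1* was at −0.16 ± 0.08 (adjusted p = 0.0913, DESeq2), a call lost when any 1 control library, or shBMAL1 library 2 or 3, was left out (−0.19 to −0.11), while without shBMAL1 library 1 it was at −0.26 (adjusted p = 6.82e-05). *GCLC*, a subunit of the enzyme that starts glutathione synthesis, was at 0.18 ± 0.08 in shARNT (adjusted p = 0.0576, DESeq2), a call lost when any 1 control library, or shARNT library 2 or 3, was left out (0.14 to 0.19).

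Zinc transporters called in shARNT moved in both directions, as did the importers called in shBMAL1. Of 10 exporters (SLC30 family), 6 were tested in each knockdown, with 1 lower and 2 higher in shARNT (median log2 fold change −0.007). In shBMAL1 1 exporter was lower and 0 higher (median −0.071). These counts stand beside 35.4% of all tested genes called in shARNT and 36.8% in shBMAL1. Besides *SLC30A1*, the family member *SLC30A9* rose in shARNT (0.19 ± 0.06, adjusted p = 0.0093, DESeq2) and *SLC30A6* fell (−0.21 ± 0.07, adjusted p = 0.0196, DESeq2). Without shARNT library 3 both calls were lost, at 0.14 (adjusted p = 0.106) and −0.16 (adjusted p = 0.158). *SLC30A5* was at −0.20 ± 0.08 in shBMAL1 (adjusted p = 0.034, DESeq2), a call lost without shBMAL1 library 3 (−0.15), control library 1 (−0.20) or control library 2 (−0.17).

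Of 14 importers (SLC39 family), 11 were tested in shARNT, with 4 lower and 2 higher (median −0.138), beside 35.4% called over all genes. In shBMAL1 12 were tested, with 4 lower and 3 higher (median −0.030), beside 36.8%. *SLC39A14*, which takes up zinc, iron and manganese, fell in both (−0.70 ± 0.06, adjusted p = 1.81e-30, and −0.27 ± 0.08, adjusted p = 0.00207; DESeq2). *SLC39A8*, its close relative, fell in shARNT to 1506 to 1706 normalised read counts from 2165 to 2463 in shControl, and rose in shBMAL1 to 2596 to 3058. Its log2 fold changes were −0.54 ± 0.08 (adjusted p = 3.24e-11) and 0.34 ± 0.09 (adjusted p = 0.000426; DESeq2), and the direct difference was 0.88 ± 0.09 (adjusted p = 2.87e-22, DESeq2). *SLC39A6* was at −0.01 ± 0.05 in shARNT (adjusted p = 0.946) and fell in shBMAL1 (−0.47 ± 0.06, adjusted p = 3.02e-12, DESeq2). *SLC39A3* rose in shARNT (0.53 ± 0.10, adjusted p = 1.4e-06, DESeq2). In shBMAL1 it was at 0.28 ± 0.13 (adjusted p = 0.0769, DESeq2), a call lost without shBMAL1 library 1 (0.14) or when any 1 control library was left out (0.26 to 0.32).

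**Figure D5:**
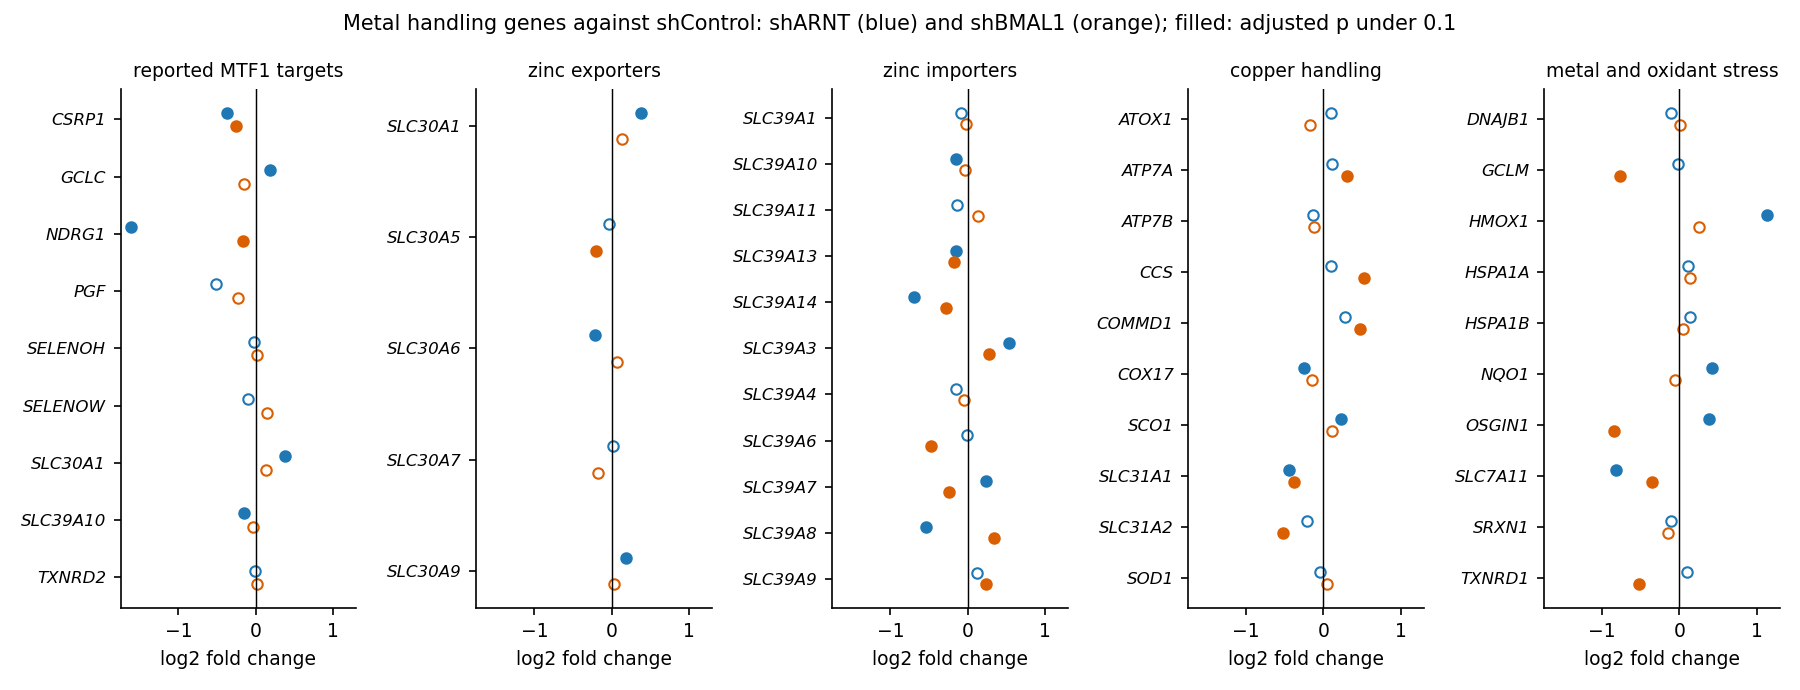
Log2 fold changes against shControl of the genes of 5 lists whose mean normalised read count reached 50 in at least 1 group, shARNT in blue and shBMAL1 in orange, filled where the adjusted p was under 0.1. Each list holds genes on both sides of 0; *SLC39A8* is filled on opposite sides, at −0.54 in shARNT and 0.34 in shBMAL1.

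Copper handling genes, whose products share copper with metallothioneins, gave 2 lower and 1 higher of 10 tested in shARNT (median 0.024). In shBMAL1 they gave 2 lower and 3 higher of 10 (median −0.037). The shares called over all genes were 35.4% in shARNT and 36.8% in shBMAL1. *SLC31A1*, the main copper importer, fell in both (−0.44 ± 0.08, adjusted p = 1.37e-07, and −0.38 ± 0.08, adjusted p = 1.63e-05; DESeq2). *CCS*, the copper chaperone of superoxide dismutase, rose in shBMAL1 (0.52 ± 0.13, adjusted p = 0.000236, DESeq2), as did the copper pump gene *ATP7A* (0.30 ± 0.09, adjusted p = 0.00502, DESeq2). *SLC31A2* fell in shBMAL1 (−0.53 ± 0.14, adjusted p = 0.000963, DESeq2).

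Of 10 genes of metal and oxidant stress, all tested, 1 was lower and 3 higher in shARNT (median 0.105). In shBMAL1 4 were lower and 0 higher (median −0.108). The shares called over all genes were 35.4% in shARNT and 36.8% in shBMAL1. *HMOX1*, which encodes the heme-degrading enzyme heme oxygenase 1 and is induced by cadmium as metallothioneins are, rose in shARNT to 699.7 to 859 normalised read counts from 352 to 371 in shControl (1.14 ± 0.11, adjusted p = 2.59e-23, DESeq2). In shBMAL1 it was at 0.25 ± 0.13 (adjusted p = 0.142, DESeq2), and it passed with edgeR (adjusted p = 0.0761), with DESeq2 after the count filter (adjusted p = 0.094) and with DESeq2 in 1 fit of all 9 libraries (adjusted p = 0.0985). When 1 library was left out, its change in shBMAL1 ran from 0.13 to 0.31 and was not called. *GCLM* and *TXNRD1*, glutathione and thioredoxin genes, fell in shBMAL1 (−0.77 ± 0.09, adjusted p = 8.69e-17, and −0.52 ± 0.06, adjusted p = 3.68e-14; DESeq2). *SLC7A11*, which imports cystine, fell in both knockdowns (−0.83 ± 0.08, adjusted p = 1.86e-25, and −0.36 ± 0.09, adjusted p = 0.000421; DESeq2).

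Of 10 glucocorticoid response genes, 9 were tested in each knockdown, with 3 lower and 3 higher in shARNT (median −0.087). In shBMAL1 3 were lower and 2 higher (median 0.020). Over all genes tested, 35.4% were called in shARNT and 36.8% in shBMAL1. *ERRFI1*, an inhibitor of EGF receptor signalling, fell in both (−0.86 ± 0.05, adjusted p = 3.97e-69, and −0.29 ± 0.06, adjusted p = 1.53e-05; DESeq2). *CEBPD*, a transcription factor gene, rose in both (0.54 ± 0.16, adjusted p = 0.00482, and 1.00 ± 0.16, adjusted p = 2.48e-09; DESeq2). *DUSP1*, a MAP kinase phosphatase gene, fell in shARNT (−0.76 ± 0.07, adjusted p = 1.77e-24, DESeq2). In shBMAL1 it was at −0.18 ± 0.09 (adjusted p = 0.123, DESeq2), and it passed with edgeR (adjusted p = 0.0792). With 1 library left out it ran from −0.30 to −0.12. Of these fits it was called only without shBMAL1 library 1 (−0.30, adjusted p = 0.000201, DESeq2). The kinase gene *SGK1* rose in shARNT (0.59 ± 0.13, adjusted p = 2.19e-05, DESeq2). In shBMAL1 it was at −0.36 ± 0.15 (adjusted p = 0.0542, DESeq2), a call lost without control library 1 or 2 or shBMAL1 library 2 or 3 (−0.37 to −0.29).

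Among the 12915 genes that averaged 50 or more normalised read counts, the pattern of the summed metallothioneins over the 9 libraries was most like those of *ATG16L1* (Pearson r = 0.975 on log2 of the normalised read count plus 1), *IER3* (0.965), *JUN* (0.964), LOC107984916 (0.961) and *RUNX2* (0.953). Each of these was lower in both knockdowns, with log2 fold changes of −0.64 to −0.21 in shARNT and −0.80 to −0.21 in shBMAL1. They were picked for likeness to a sum that is itself lower in both, so this direction follows from the choice. The pattern of *MTF1* was most like those of *GGA3* (0.963), *FKBP15* (0.954), *DNAJC11* (0.951), *GOSR2* (0.948) and *PRDX6* (0.943). Between members r was 0.871 for *MT2A* and *MT1X*, 0.709 for *MT2A* and *MT1E* and −0.656 for *MT1F* and *MT1X*. With *MTF1* it was −0.743 for *MT1E*, −0.481 for *MT1F*, −0.321 for *MT2A* and 0.107 for *MT1X*. The 9 points form 3 groups and share library and depth, so these values describe likeness and carry no test.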

How the data were processed

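RNA of 786-O cells in 9 libraries (3 groups of 3, labelled biological replicates) was analysed. Per the labels, stranded mRNA libraries were made. The deposited values are estimated counts of total reads per gene. Per the study's methods the authors aligned paired reads to GRCh37 with SeqMan NGen and counted them with ArrayStar, whereas the submitters' processing notes name hg38 and STAR, so the build behind the counts is not settled. Which annotation was counted, and whether strand was used, is not given in the sources used here.

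A stand-in of 0.009 (46.3% of cells) was set to 0, fractional values (6.14% of the others, in none of the 8 members) were rounded, and rows of the same symbol were added (53 of 38074). In 28 rows the symbol read as a date, and these were fitted but not named. Each comparison was fitted on its 6 libraries over all genes with DESeq2 1.42.0 in R 4.3.3 (Wald test, median-of-ratios size factors, independent filtering, Benjamini-Hochberg adjustment over all genes tested, two-sided). A gene was called at an adjusted p under 0.1. Intervals are 1.96 SE either side. Normalised read counts use size factors over all 9 libraries. No source says whether replicates came from separate infections, so p-values measure the spread between these libraries. Library totals differed little (33793045 to 35444735 reads), and counting error sets the precision of the genes near 0.

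Alternatives were edgeR 4.0.16, TMM scaling, a filter of 10 counts in 3 libraries, a threshold of 0.05, 1 fit of all libraries, a replicate block, rounding down, and leaving out each library. The fits were tested on simulated data. Positions, lengths and transcripts came from GENCODE on GRCh37 and promoters from RefSeq on GRCh38.p14, aligned and searched with Python 3.11.15 and Biopython 1.88. The members and gene lists were chosen with earlier results of these data known. Named were all 8 members, up to 4 genes of each list (smallest adjusted p in either knockdown), the targeted genes, and the 5 genes most like the summed metallothioneins or *MTF1*. One gene of a list is not reported here. Of the marker lists, counts and sums are given.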

Additional observations from a re-analysis of the deposited data

Results flagged for a closer look

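The genes below are those named above that passed the direct test of shBMAL1 against shARNT (DESeq2, adjusted p under 0.1), so their change differed between the knockdowns. Other genes of the same lists passed it too. Values are log2 differences, shBMAL1 minus shARNT, and 36.3% of all genes tested passed the same test. Among the members these were *MT1F* (0.894), *MT1X* (−0.485) and *MTF1* (−0.245), the last of which is no longer called when any 1 of 4 libraries is left out. Among the named genes flanking the cluster these were *NUDT21* (−0.516), *OGFOD1* (−0.354), *NUP93* (−0.277) and *BBS2* (−0.179). Among the named zinc transporters and other reported MTF1 targets they were *NDRG1* (1.45), *SLC39A8* (0.883), *SLC39A14* (0.429), *SLC39A6* (−0.46), *GCLC* (−0.329), *SLC30A6* (0.281), *SLC30A1* (−0.245) and *SLC30A5* (−0.168). Among the named copper handling genes they were *CCS* (0.435), *SLC31A2* (−0.312) and *ATP7A* (0.199). Among the named stress genes they were *HMOX1* (−0.886), *GCLM* (−0.742), *TXNRD1* (−0.618) and *SLC7A11* (0.471). Among the named glucocorticoid response genes they were *SGK1* (−0.95), *DUSP1* (0.583), *ERRFI1* (0.576) and *CEBPD* (0.468). The smooth muscle gene *ACTA2* differed by 0.676 and *CD68* by −0.226. The targeted genes *ARNT* (0.716) and *BMAL1* (−0.96, listed as *ARNTL*) differed as labelled. The calls of *BBS2* (−0.209 to −0.142), *SLC30A1* (−0.296 to −0.159), *SLC30A5* (−0.217 to −0.113), *SLC31A2* (−0.423 to −0.258), *ATP7A* (0.162 to 0.253) and *CD68* (−0.316 to −0.148) are each lost when some single library is left out, with the range of the difference in brackets. Single values were not tested for outlying libraries within the groups of 3, and the effect of each library is given by leaving it out.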

How the results depend on the processing

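For the 5 measured members, 176 of 195 alternative values kept their direction and their side of the threshold. The calls of *MT2A*, *MT1X* and, in shBMAL1, *MT1F* did so under every alternative run, with edgeR, TMM scaling, the count filter, 1 fit of all libraries, the threshold of 0.05, rounding down and the block included. Without 1 library each, log2 fold changes in shARNT ran from −0.491 to −0.327 (*MT2A*), −0.484 to −0.33 (*MT1X*), −0.397 to −0.202 (*MT1E*), −0.275 to 0.096 (*MT1F*) and 0.169 to 0.286 (*MTF1*). In shBMAL1 they ran from −0.599 to −0.451 (*MT2A*), −1.016 to −0.761 (*MT1X*), −0.291 to −0.09 (*MT1E*), 0.614 to 0.984 (*MT1F*) and −0.081 to 0.036 (*MTF1*). In the direct comparison they ran from −0.165 to −0.044 for *MT2A*, 0.037 to 0.182 for *MT1E* and −0.294 to −0.203 for *MTF1*. *MTF1* in shBMAL1, near 0 throughout, turned to 0.0, 0.036 and 0.029 without control library 1, control library 2 and shBMAL1 library 3. At an adjusted p under 0.05 *MT1E* in shBMAL1 (−0.213, adjusted p = 0.0716) was no longer called. Of the named list genes, 1107 of 1209 values stayed as reported. Sign changes, all of values not called, occurred when 1 library was left out. In shARNT the values without 1 library ran from −0.032 to 0.02 for *SLC39A6*, −0.082 to 0.015 for *GCLM*, −0.007 to 0.059 for *OGFOD1*, −0.068 to 0.002 for *SLC30A5*, −0.008 to 0.187 for *CCS* and −0.134 to 0.03 for *ACTA2*, and in shBMAL1 from −0.016 to 0.089 for *SLC30A9*. The cause of these changes was not tested. Genes called ran from 4151 to 6027 in shARNT, 5743 to 7673 in shBMAL1 and 5106 to 7013 in the direct comparison. The summed metallothioneins stayed lower in both knockdowns with TMM scaling, with scaling to library totals and without each library (−0.504 to −0.293), and their difference between the knockdowns shrank to −0.002 without shARNT library 3. Depth limits *MT1A*, *MT1G* and *MT1M*.

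The replicate numbers did not pair the libraries, since deviations of same-numbered libraries correlated at −0.154 to 0.105 over 9 pairs. With a replicate block the log2 fold change of *MTF1* was 0.237 in shARNT (adjusted p = 0.126) and −0.246 between the knockdowns (adjusted p = 0.106), neither called, and no other member's call changed.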
